A study of Mus musculus with 6 samples.

Results

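The 38 genes described here encode the clotting factors, fibrinogen chains, kinin system proteins, anticoagulants and plasminogen system proteins of the mouse, listed by name. Of these, 36 were among the 22180 genes measured by a probe set annotated to 1 gene; Klkb1 (plasma prekallikrein) and Cpb2 (carboxypeptidase B2) had no such probe set. Livers of 6 C57BL/6J males were each read on an Affymetrix whole-transcript array. The 3 HKO mice carried a floxed Slug gene (symbol Snai2) and albumin-CreERT2, which has the albumin promoter express a Cre recombinase in hepatocytes that is active only with tamoxifen. The 3 Con mice were floxed littermates. All 6 males, aged 8 weeks at the start, ate a diet in which fat supplied 60% of calories during 11 weeks. The labels do not state the Cre status of Con mice or the way Cre was activated. Values are deposited log2 probe set values, and a gene with several probe sets is read at the brightest of them. A group's 3 values are given in the order of its arrays 1 to 3, named HKO1 to HKO3 and Con1 to Con3.

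Most plasma clotting proteins are made and secreted by hepatocytes as inactive precursors. The tissue factor and factor VIIa complex starts the cascade, thrombin turns fibrinogen into fibrin, and antithrombin and the protein C system restrain it. Plasmin, made from liver plasminogen by the activators Plat and Plau, dissolves fibrin. Factor VIII, von Willebrand factor, thrombomodulin and the tissue plasminogen activator are products of endothelial cells, which line liver vessels. Slug is a zinc finger protein of the Snail family that binds E-box sequences and is known as a repressor. By textbook knowledge of where each protein is mainly made, the genes were parted into 27 made by hepatocytes (25 measured), 6 of endothelial cells and 5 of other cells. Tfpi2, which several cell types make, was put with the last.

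Snai2 itself (probe set 17323192) read 4.62, 5.23 and 5.69 in HKO livers and 7.74, 7.69 and 7.39 in Con livers. All 3 HKO arrays were lower, by 2.43 ± 0.248 on the log2 scale (SE, limma adjusted p = 0.0145). The adjusted p was 0.0621 without HKO2, 0.0758 without Con1, 0.0927 without Con2 and 0.0910 when all probe sets were tested singly. Arrays of the same group correlated at 0.989 to 0.992 over all genes and arrays of different groups at 0.986 to 0.988. In all, 45 genes passed an adjusted p of 0.05, 20 higher and 25 lower in HKO livers. Hepatocyte identity was plain on every array: the summed level of 10 measured hepatocyte markers was 14.39 to 14.54 in HKO and 14.38 to 14.45 in Con livers on the log2 scale, with Alb (albumin) at 12.48, 12.46 and 12.40 in HKO and 12.43, 12.46 and 12.43 in Con livers. Arrays have no read depth, so the number of arrays limits the precision. As a guide to genes that liver does not make, 1088 olfactory receptor genes had a 95th percentile of 3.85 in their mean log2 value.

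Most hepatocyte clotting genes differed little between groups, F7 and F11 the most, while the clotting and fibrinolysis genes of endothelial and other cells all averaged lower in HKO livers. The 25 hepatocyte genes had a median log2 change of 0.046 (HKO minus Con), beside -0.0081 over all genes; 18 averaged higher and 7 lower. That median was 0.020 after a second quantile normalization and 0.0998 without Con1. None of the 25 passed an adjusted p of 0.05 in limma, which over all genes was passed upward by 0.0902% and downward by 0.113%; 3 passed an unadjusted p of 0.05, all upward. The 11 genes of endothelial and other cells had a median log2 change of -0.31. Of these, 1 passed the adjusted threshold, Plat (tissue plasminogen activator), which was lower in HKO livers. Counts and medians describe the lists and were not tested.

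**Figure D1:**
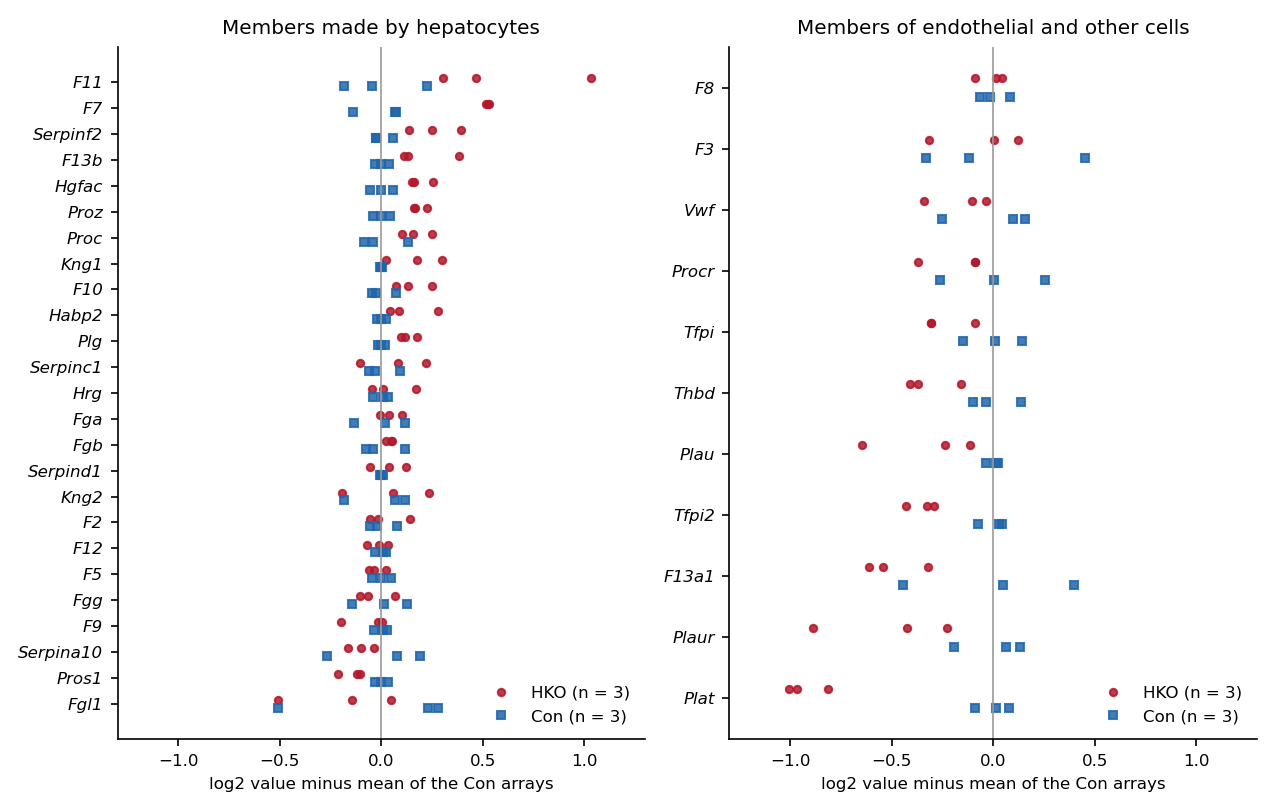
Each point is 1 array: the gene's log2 value minus the mean of the 3 Con arrays, for 25 hepatocyte genes (left) and 11 genes of endothelial and other cells (right), HKO as red circles and Con as blue squares. On the left F11 and F7 lie farthest above 0, and on the right Plat lies farthest below it, with no HKO array among the Con arrays.

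Where the 2 groups did not overlap, the hepatocyte genes mostly stood higher in HKO livers. All 3 HKO arrays were above all 3 Con arrays in 10 of 25 hepatocyte genes (40%), beside 8.05% of all genes, and below them in 1 of 25, beside 10.1% of all genes. Bright genes have less scatter: the median residual SD was 0.0889 for the 25 hepatocyte genes and 0.159 over all genes. Among the 2227 genes with a mean log2 value no lower than that of the dimmest hepatocyte member, 17.1% were higher without overlap and 18.0% lower without overlap. At an unadjusted p of 0.05 the share of hepatocyte genes was 12% upward, beside 5.31% of all genes and 8.98% of those bright genes. The changes were small: in 21 of the 25 the 95% interval of the log2 change lay within 0.5 either way. Of the 25, 10 had their highest value in HKO1, the array that held the highest value of 3902 of the 22180 genes. Without HKO1 the median log2 change was 0.065. After a second quantile normalization 8 hepatocyte genes were higher without overlap. Leaving out an array cannot lower that count, so the count is no check on the part of HKO1.

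F7 encodes factor VII, the vitamin K-dependent protease that tissue factor binds. F7 read 8.72, 8.73 and 8.73 in HKO livers and 8.27, 8.07 and 8.27 in Con livers. The HKO arrays lay within a narrow band and clear of every Con array. The log2 change was 0.52 ± 0.103 (SE), or 1.44-fold higher, with an unadjusted limma p of 0.000887 and an adjusted p of 0.121. The adjusted p was 0.0127 when limma's variance was allowed to follow the level of the gene, 0.0435 when genes with a mean log2 value under 4 were left out, and 0.348 without Con2.

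F11 encodes factor XI, which thrombin activates to keep thrombin generation going. Its values were 8.58, 9.15 and 8.42 in HKO livers and 8.07, 7.93 and 8.34 in Con livers. HKO2 was far above the others, and the lowest HKO array lay only just above the highest Con array. The log2 change was 0.60 ± 0.199 (SE), the largest upward among the members, with an adjusted p of 0.303; without HKO2 it was 0.38. Klkb1, the neighbour of F11 on chromosome 8 and its close relative in sequence, was not analysed here as a gene.

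The other clotting proteases and cofactors differed less. F10 (factor X, which cuts prothrombin) read 8.92, 8.75 and 8.80 in HKO livers and 8.63, 8.74 and 8.64 in Con livers, higher by 0.15 with HKO2 and Con2 almost equal. F13b, the carrier subunit of the fibrin cross-linking factor XIII, read 9.30, 9.05 and 9.03 in HKO livers and 8.95, 8.91 and 8.88 in Con livers. All HKO arrays were above all Con arrays there, by 0.21 ± 0.110 in the mean (SE, adjusted p = 0.510), with HKO1 well above the other two. F2 (prothrombin) read 10.68, 10.52 and 10.48 in HKO livers and 10.62, 10.48 and 10.52 in Con livers. F9 (factor IX, the protein missing in haemophilia B) read 9.81, 9.61 and 9.79 in HKO livers and 9.84, 9.77 and 9.82 in Con livers. In both genes the groups overlapped, with log2 changes of 0.022 (95% interval -0.22 to 0.26) and -0.071 (95% interval -0.31 to 0.16). F5 (factor V, the cofactor of factor X) and F12 (factor XII, which starts the contact pathway) also overlapped, with log2 changes of -0.023 and -0.016. Over all 12 clotting factor genes, those of endothelial and other cells included, the median log2 change was -0.014 and none passed the adjusted threshold in limma, with 2 higher and 1 lower at an unadjusted p of 0.05 (5.31% and 6.56% of all genes).

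Promoter letters are shown for F7 and F11, the hepatocyte members with the largest differences, for Fgb as a steady one, and for Tfpi2, the bright member that was lower in HKO livers. They are RefSeq sequences of the build GRCm38.p6, 250 bases before to 50 after the annotated start, 5′ to 3′ on the gene's strand. The RefSeq span of F7 begins at base 13025506, upstream of its window, so the bases before that one are not covered. Capitals mark matches, on either strand, to the Snail family E-box CAGGTG, the HNF1 motif GTTAAT, the HNF4 core CAAAGT or the C/EBP core TTGCNNAA.
F7, chr8:13025784-13026083, plus strand: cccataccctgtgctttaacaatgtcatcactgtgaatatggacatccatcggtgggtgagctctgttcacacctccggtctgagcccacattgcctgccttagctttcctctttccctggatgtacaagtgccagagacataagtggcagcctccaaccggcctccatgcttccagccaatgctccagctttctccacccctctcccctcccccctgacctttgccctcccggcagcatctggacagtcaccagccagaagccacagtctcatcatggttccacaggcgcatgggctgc
F11, chr8:45261982-45262281, minus strand: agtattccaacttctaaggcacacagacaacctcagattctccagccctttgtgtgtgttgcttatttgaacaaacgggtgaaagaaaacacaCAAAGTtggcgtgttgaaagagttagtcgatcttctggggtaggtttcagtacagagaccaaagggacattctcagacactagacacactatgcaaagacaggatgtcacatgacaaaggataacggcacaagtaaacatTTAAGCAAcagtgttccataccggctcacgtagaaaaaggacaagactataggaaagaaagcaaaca
Fgb, chr3:83049814-83050113, minus strand: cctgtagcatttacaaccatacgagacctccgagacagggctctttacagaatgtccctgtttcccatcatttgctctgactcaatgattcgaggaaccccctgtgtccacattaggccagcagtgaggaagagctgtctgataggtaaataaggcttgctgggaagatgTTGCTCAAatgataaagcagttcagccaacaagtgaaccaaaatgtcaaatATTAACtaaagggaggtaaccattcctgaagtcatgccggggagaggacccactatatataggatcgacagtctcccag
Tfpi2, upstream start, chr6:3988809-3989108, minus strand: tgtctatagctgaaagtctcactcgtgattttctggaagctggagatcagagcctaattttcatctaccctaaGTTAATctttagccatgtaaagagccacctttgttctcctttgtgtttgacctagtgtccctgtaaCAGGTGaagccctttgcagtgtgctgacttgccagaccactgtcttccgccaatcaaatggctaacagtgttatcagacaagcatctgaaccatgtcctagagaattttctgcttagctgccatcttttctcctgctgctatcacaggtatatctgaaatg
Tfpi2, downstream start, chr6:3968326-3968625, minus strand: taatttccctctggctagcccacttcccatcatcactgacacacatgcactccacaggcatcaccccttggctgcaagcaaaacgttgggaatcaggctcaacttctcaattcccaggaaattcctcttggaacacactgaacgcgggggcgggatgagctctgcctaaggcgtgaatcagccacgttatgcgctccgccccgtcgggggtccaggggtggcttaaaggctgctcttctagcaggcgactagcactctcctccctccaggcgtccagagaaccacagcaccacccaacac
In F7 and at the downstream Tfpi2 start none of these letters occurred in the window. Only the letters given were searched, so other forms of the same motifs would be missed. F11 held the HNF4 core with its first base at position -157 and the C/EBP core at -17, counted from the annotated start. Fgb held the HNF1 motif at -29 and the C/EBP core at -80. The upstream Tfpi2 start shown held the E-box at -111 and the HNF1 motif at -177. RefSeq lists another start farther upstream, not shown, whose window overlaps this one and has the same E-box at -33 and HNF1 motif at -99. Which Tfpi2 start the array's probes report was not analysed here.

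Of the 38 genes, 29 matched the promoter table, 22 of them hepatocyte genes. The E-box was found in 6 (F8, F9, Hgfac, Proz, Tfpi and Tfpi2), beside 20.2% of all 32851 promoters and 22.6% of all 27025 genes. Of these 6, Hgfac and Proz were higher and Tfpi2 lower in every HKO array, and the others overlapped. The HNF1 motif was in 7 of 22 hepatocyte genes (31.8%), beside 7.10% of all promoters and 8.24% of all genes. The C/EBP core was in 10 of 22 (45.5%), beside 10.8% of promoters and 12.2% of genes, and the HNF4 core in 5 of 22 (22.7%), beside 14.4% of promoters and 16.1% of genes. The HNF4 and C/EBP letters overlap in Procr. A match is a description of letters and not a site of binding, and these sequence shares are not independent of the members' choice as liver genes. Fgl1, Kng1, Plat, Plau, Plg, Proc, Serpina10, Thbd and Vwf had no entry.

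The fibrinogen chain genes overlapped throughout. Fibrinogen is a plasma protein of 3 chain types that thrombin turns into the fibrin mesh, and its genes Fga, Fgb and Fgg lie side by side on chromosome 3. Fga read 10.50, 10.43 and 10.39 in HKO livers and 10.51, 10.41 and 10.26 in Con livers. Fgb read 11.67, 11.67 and 11.64 in HKO livers and 11.74, 11.58 and 11.54 in Con livers. Fgg read 11.24, 11.11 and 11.07 in HKO livers and 11.31, 11.19 and 11.03 in Con livers. In all 3 genes the HKO arrays lay inside the range of the Con arrays, and Con1 was the highest array. Their log2 changes were 0.045 for Fga (95% interval -0.20 to 0.29), 0.042 for Fgb (-0.19 to 0.27) and -0.035 for Fgg (-0.29 to 0.22). The sign of the Fgb change turned, to -0.020, when the arrays were quantile normalized again. Fgl1, a fibrinogen-like protein secreted by liver, varied far more between mice, reading 9.63, 9.08 and 9.44 in HKO livers and 9.86, 9.81 and 9.08 in Con livers. Its groups overlapped, with a log2 change of -0.20 ± 0.230 (SE).

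Kininogens carry bradykinin and serve as cofactors of the contact pathway. Kng1 read 8.17, 8.01 and 8.29 in HKO livers and 7.99, 8.00 and 7.99 in Con livers. The Con arrays were nearly equal and all HKO arrays were above them, HKO2 by 0.017 only. The log2 change of 0.17 had an unadjusted limma p of 0.158. Kng2, the rodent paralog of Kng1, overlapped, with a log2 change of 0.034; the probes of such close relatives can share signal. Hrg, a plasma glycoprotein that binds heparin and plasminogen, read 10.88, 10.93 and 11.09 in HKO livers and 10.95, 10.88 and 10.93 in Con livers. These groups overlapped too, with a log2 change of 0.046. Hrg, Kng2 and Kng1 lie side by side on chromosome 16.

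Members that lie together in the genome can be read as blocks. F7, F10 and Proz follow each other on chromosome 8 with no other protein-coding gene between them in the RefSeq annotation of GRCm38.p6. Every HKO array was above every Con array in each of the 3 genes, in F10 by a gap of 0.0032 only. The share of such genes was 8.05% over all genes and 17.1% over the 2227 bright genes. The log2 changes were 0.52 for F7, 0.15 for F10 and 0.18 for Proz. Their nearest protein-coding neighbours, Mcf2l before F7 and Pcid2 after Proz, overlapped between groups, with log2 changes of 0.25 and 0.0069; Mcf2l averaged 3.55 in HKO and 3.303 in Con livers, under the olfactory percentile. In the fibrinogen block on chromosome 3 and the Hrg block on chromosome 16, Kng1 alone of the 6 members stood apart between groups. The nearest neighbours of the Hrg block, Fetub and Eif4a2, were higher without overlap, with log2 changes of 0.46 and 0.22. So was Ahsg, which lies beyond Fetub (0.12). Beside the fibrinogen block, Plrg1 was lower without overlap (-0.25) and Lrat overlapped (0.027). Whether blocks differ was not tested.

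**Figure D2:**
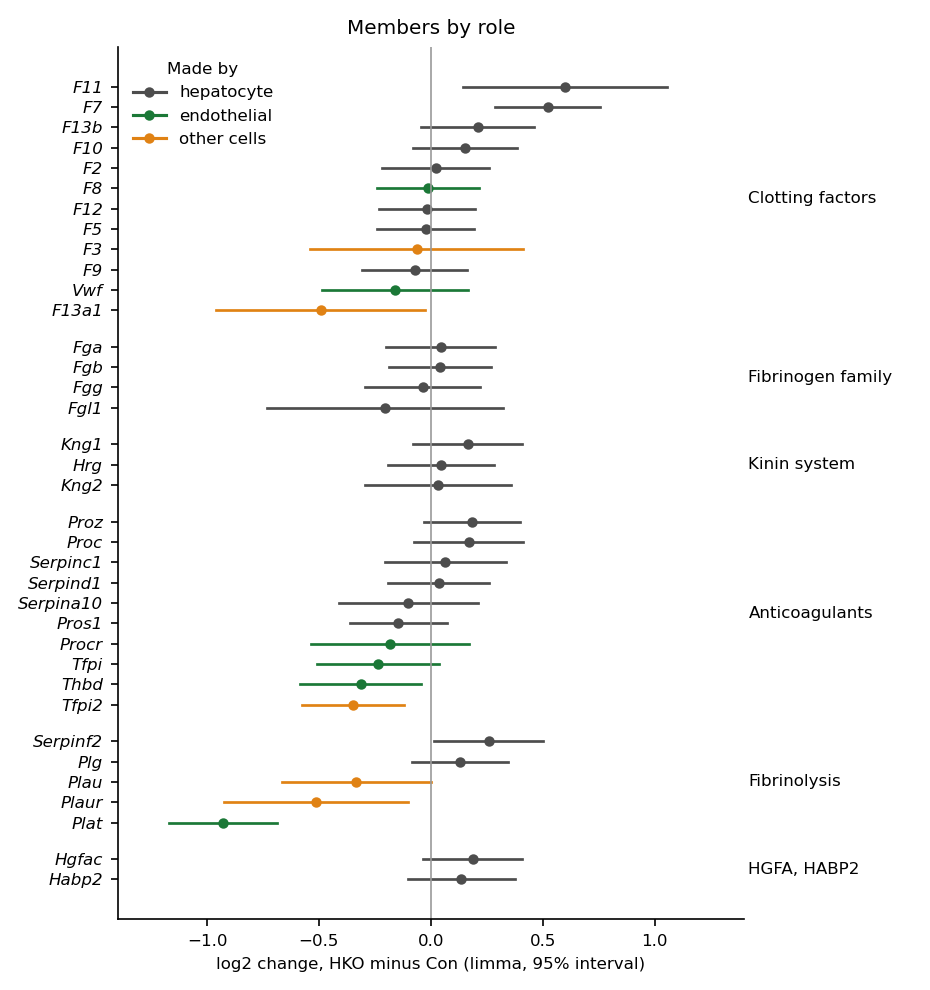
Log2 change, HKO minus Con, with limma's 95% interval for the 36 measured genes, grouped by role and coloured by the cells that mainly make them (dark grey hepatocyte, green endothelial, orange other cells). Intervals that lie wholly above 0 belong to F11, F7 and Serpinf2, and the one farthest below 0 to Plat.

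The liver anticoagulants differed little. Serpinc1 encodes antithrombin, the main inhibitor of thrombin. It read 10.84, 10.51 and 10.70 in HKO livers and 10.59, 10.56 and 10.71 in Con livers, overlapping, with a log2 change of 0.066 (95% interval -0.20 to 0.33). Proc, the protein C precursor that cuts factors V and VIII once activated, read 9.52, 9.42 and 9.37 in HKO livers and 9.22, 9.18 and 9.40 in Con livers. Con3 reached into the HKO range there, and the log2 change was 0.17 ± 0.106 (SE). Proz, protein Z, is the cofactor of the factor X inhibitor Serpina10. Proz read 9.34, 9.28 and 9.28 in HKO livers and 9.11, 9.07 and 9.16 in Con livers, higher without overlap by 0.18 ± 0.0935 (SE, adjusted p = 0.494). Its partner Serpina10 overlapped, with a log2 change of -0.10, as did Serpind1 (heparin cofactor II), with 0.035. Over all 10 anticoagulant genes, endothelial ones included, the median log2 change was -0.12, and none passed the adjusted threshold in limma (2 lower at an unadjusted p of 0.05, beside 6.56% of all genes).

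Pros1 (protein S, the cofactor of activated protein C, made by endothelial cells as well as hepatocytes) was the hepatocyte member that stood lower without overlap. It read 7.36, 7.34 and 7.25 in HKO livers and 7.49, 7.46 and 7.43 in Con livers, a log2 change of -0.15 ± 0.0946 (SE, adjusted p = 0.606). The 7 vitamin K-dependent genes (F2, F7, F9, F10, Proc, Pros1 and Proz) did not share a direction: 5 averaged higher and 2 lower, with a median log2 change of 0.15. Ggcx, the carboxylase that completes these proteins, had a log2 change of 0.0047, and Vkorc1, the reductase that warfarin inhibits, of 0.087.

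Hgfac and Habp2 encode secreted serine proteases, the activator of hepatocyte growth factor and the factor VII-activating protease. Hgfac read 9.41, 9.42 and 9.52 in HKO livers and 9.20, 9.31 and 9.26 in Con livers. Habp2 read 9.33, 9.14 and 9.09 in HKO livers and 9.04, 9.02 and 9.07 in Con livers. Both were higher in every HKO array, Habp2 by a gap of 0.016 between the closest arrays. The log2 changes were 0.19 ± 0.0965 for Hgfac (SE, adjusted p = 0.497) and 0.14 ± 0.105 for Habp2 (SE, adjusted p = 0.663).

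Among the 5 measured members of the plasminogen system, Plg and Serpinf2 were higher and Plat, Plau and Plaur lower in HKO livers. The groups overlapped in none of the 5, beside 8.05% of all genes higher and 10.1% lower without overlap. Plg and Serpinf2 are bright, and of the 2227 bright genes 17.1% were higher without overlap. Of 10 other measured genes of that system 6 overlapped, among them Pzp, Mug1 and Mug2, with log2 changes of 0.012, -0.074 and -0.26. Another 1 was higher and 3 were lower without overlap. Plg, the plasminogen precursor of plasmin, read 11.18, 11.12 and 11.10 in HKO livers and 11.02, 11.00 and 10.98 in Con livers. Serpinf2 encodes alpha-2-antiplasmin, the main plasma inhibitor of plasmin. Serpinf2 read 10.38, 10.24 and 10.13 in HKO livers and 10.05, 9.96 and 9.96 in Con livers. Every HKO array was above every Con array in both genes, by gaps of 0.078 for Plg and 0.079 for Serpinf2. The log2 change was 0.13 ± 0.0927 for Plg (SE, adjusted p = 0.635) and 0.26 ± 0.106 for Serpinf2 (SE, unadjusted p = 0.0403, adjusted p = 0.399).

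Plat, which encodes tissue plasminogen activator, is the member that passed the threshold. It read 3.23, 3.27 and 3.43 in HKO livers and 4.15, 4.25 and 4.32 in Con livers. All HKO arrays lay far below the Con arrays, with a gap of 0.73 between the closest. The mean was 3.31 ± 0.101 in HKO and 4.24 ± 0.0830 in Con livers (SD, n = 3 each), and Plat fell by 0.93 ± 0.105 on the log2 scale (SE, limma adjusted p = 0.0222). The HKO mean lies under the 3.85 that marks the 95th percentile of olfactory receptor genes, so the size of the change is not a fold of transcript. Leaving out any 1 of the 6 arrays kept the size between -0.99 and -0.89 and moved the adjusted p to between 0.0547 (without HKO3) and 0.143 (without Con2); it was 0.0910 when all 41345 probe sets were tested singly. In bulk liver, fewer cells of a type and less RNA per cell cannot be told apart.

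The urokinase genes leaned the same way at low levels. Plau, urokinase, activates plasminogen at cell surfaces. It read 3.57, 3.98 and 4.10 in HKO livers and 4.18, 4.23 and 4.24 in Con livers. Plaur, its receptor, read 3.31, 3.78 and 3.98 in HKO livers and 4.27, 4.01 and 4.33 in Con livers. In both, every HKO array was below every Con array, HKO1 was the lowest, and the values sit close to the olfactory percentile. The log2 changes were -0.33 ± 0.145 for Plau (SE, unadjusted p = 0.0496, adjusted p = 0.420) and -0.51 ± 0.179 for Plaur (SE, unadjusted p = 0.0201, adjusted p = 0.328).

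Of the surface partners of plasminogen outside the member list, 2 fell in HKO livers. The plasminogen receptor gene Plgrkt overlapped between groups, with a log2 change of -0.051. Anxa2 (annexin A2) and S100a10 (p11) form a surface complex that binds plasminogen and tissue plasminogen activator. Anxa2 read 4.33, 4.58 and 4.70 in HKO livers and 6.52, 6.65 and 6.56 in Con livers. S100a10 read 8.47, 8.68 and 8.60 in HKO livers and 9.58, 9.47 and 9.33 in Con livers. Neither gene overlapped between groups. Anxa2 fell by 2.04 ± 0.122 (SE, limma adjusted p = 0.000940) and S100a10 by 0.87 ± 0.112 (SE, limma adjusted p = 0.0344); without any 1 array, Anxa2 kept an adjusted p of at most 0.0124 and S100a10 had 0.0552 to 0.164. When all probe sets were tested singly S100a10 had an adjusted p of 0.112.

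**Figure D3:**
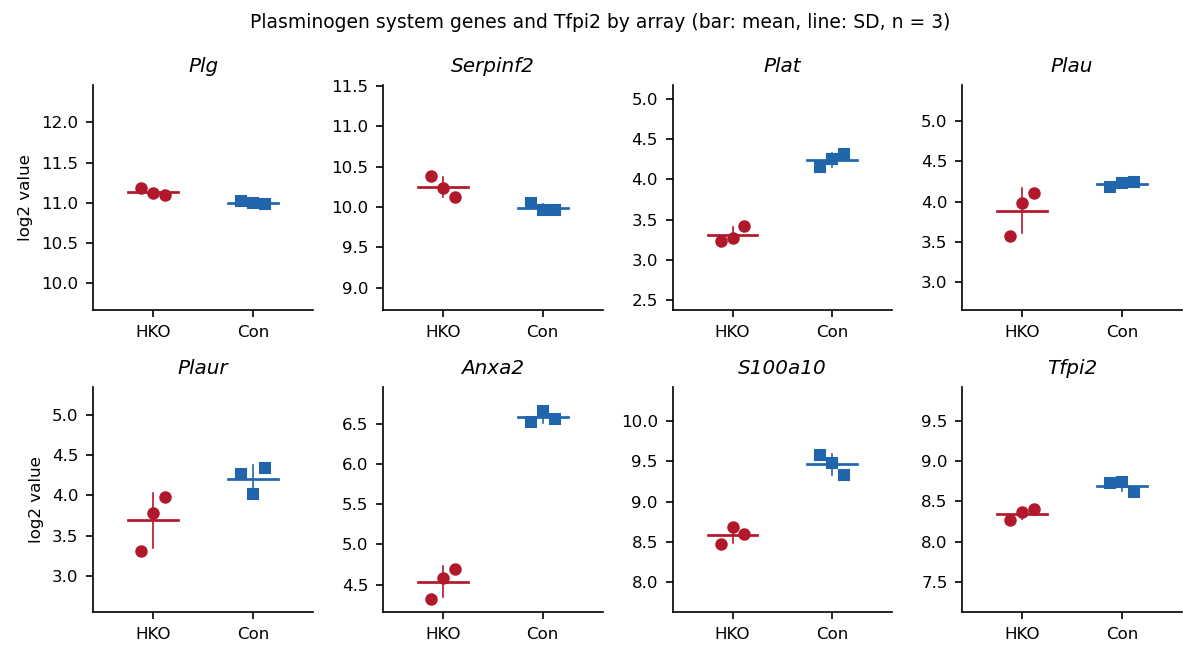
Log2 values by array of 5 plasminogen system members, the surface partners Anxa2 and S100a10, and Tfpi2, HKO in red and Con in blue, with the mean as a bar and the SD as a line (n = 3 each). Every panel spans the same number of log2 units; Plg and Serpinf2 are higher in HKO livers and the other 6 genes lower.

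Among the remaining genes of endothelial and other cells, Tfpi2 had the widest gap between groups. It encodes a Kunitz-type inhibitor of plasmin and of the tissue factor and factor VIIa complex, deposited in the extracellular matrix. Tfpi2 read 8.27, 8.37 and 8.40 in HKO livers and 8.73, 8.74 and 8.62 in Con livers. All HKO arrays were below all Con arrays by at least 0.22, at levels far above the olfactory percentile. The log2 change was -0.35 ± 0.0989 (SE, unadjusted p = 0.00746, adjusted p = 0.250), or 1.27-fold lower. The mean log2 value of Tfpi2, 8.52, lies within the range of the hepatocyte genes (7.39 to 11.64), as does that of the endothelial F8 (8.00). Which liver cells make Tfpi2 was not tested, and no count was made with it among the hepatocyte genes.

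Thbd encodes thrombomodulin, the endothelial receptor that turns thrombin into an activator of protein C. It read 4.54, 4.51 and 4.76 in HKO livers and 5.05, 4.88 and 4.82 in Con livers, lower without overlap by a gap of 0.056. The log2 change was -0.31 ± 0.117 (SE, unadjusted p = 0.0277, adjusted p = 0.360). Tfpi, the endothelial inhibitor of tissue factor, read 5.25, 5.46 and 5.25 in HKO livers and 5.56, 5.70 and 5.41 in Con livers. HKO2 overlapped Con3 there, and the log2 change was -0.23 ± 0.119 (SE). Procr, the endothelial protein C receptor, and Vwf, the platelet-binding multimer of the vessel wall, overlapped as well, with log2 changes of -0.18 and -0.16. F8 (factor VIII, the protein missing in haemophilia A, made by liver endothelium) read 8.04, 7.92 and 8.02 in HKO livers and 7.99, 8.09 and 7.94 in Con livers. F8 overlapped throughout, with a log2 change of -0.012 (95% interval -0.24 to 0.22).

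F13a1, the catalytic subunit of factor XIII made by macrophages and platelets, read 3.04, 2.75 and 2.82 in HKO livers and 3.41, 3.76 and 2.91 in Con livers. Its values lie under the olfactory percentile and HKO1 lay above Con3; the log2 change was -0.49 ± 0.203 (SE, unadjusted p = 0.0403, adjusted p = 0.399). F3 (tissue factor) overlapped, with a log2 change of -0.063 ± 0.208 (SE). In all, 6 of the 11 genes of endothelial and other cells (54.5%) were lower at an unadjusted p of 0.05, beside 6.56% of all genes, and 5 of 11 (45.5%) were lower without overlap, beside 10.1% of all genes. Without Con1, 2 of the 11 were lower at that p, and without HKO1 the median log2 change was -0.20.

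**Figure D4:**
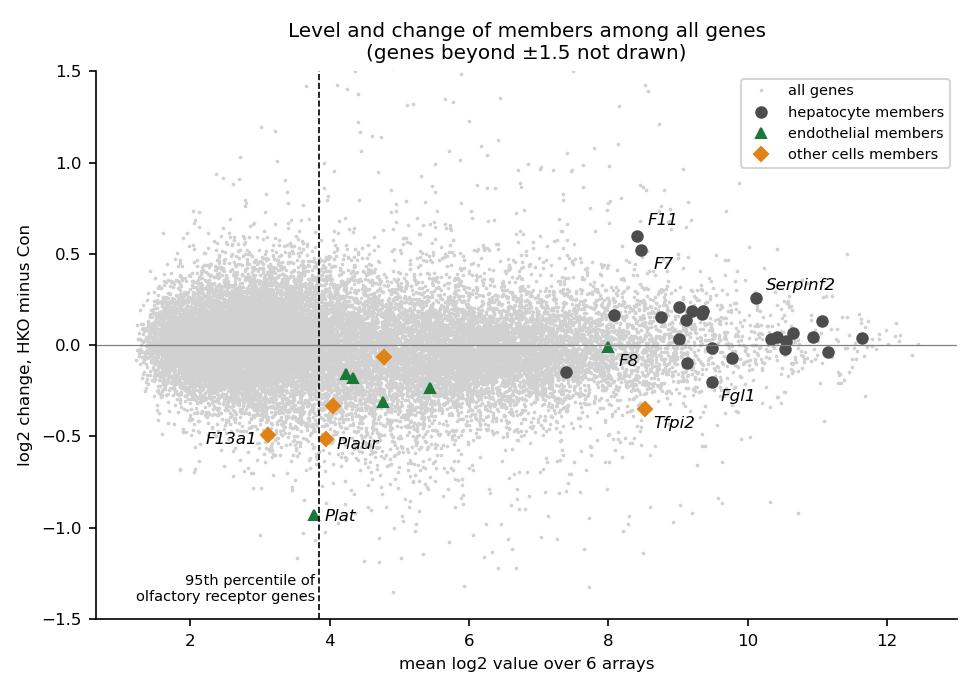
Each grey point is 1 of 22180 genes: its mean log2 value over 6 arrays (x) and its log2 change, HKO minus Con (y); the few genes beyond the y axis are not drawn. The 25 hepatocyte members lie at 7.39 and above near 0 change, F11 and F7 highest among them, while Plat and F13a1 lie left of the dashed line at 3.85, the 95th percentile of the olfactory receptor genes.

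Markers of the cells that make these proteins moved with them in part. Of 12 vascular endothelial markers, 11 averaged lower in HKO livers, with a median log2 change of -0.16; Pecam1 read 6.59, 6.66 and 6.58 in HKO livers and 6.89, 6.92 and 6.89 in Con livers. Their summed level was 10.18 to 10.24 in HKO and 10.31 to 10.42 in Con livers. None of the 12 passed limma's adjusted threshold, and 2 were lower at an unadjusted p of 0.05, beside 6.56% of all genes. Cldn5 was at or under the olfactory percentile. The 9 measured sinusoidal endothelial markers did not share that lean: 7 averaged higher, with a median log2 change of 0.037 and summed levels of 11.36 to 11.38 in HKO and 11.22 to 11.24 in Con livers. Of 12 macrophage markers 9 averaged lower (median -0.36, overlapping summed levels of 10.004 to 10.16 in HKO and 10.09 to 10.35 in Con livers, Ccr2 at or under the olfactory percentile), and of 12 stellate cell markers 9 averaged lower (median -0.38, summed level 10.81 to 10.93 in HKO and 11.09 to 11.23 in Con livers). In each of these lists 1 gene passed the adjusted threshold, Itgax and Col1a2, both lower. Leaving out any 1 array put their adjusted p at 0.0621 to 0.149 for Itgax and 0.0758 to 0.176 for Col1a2. Both lists were split. Clec4f was higher in every HKO array (log2 change 0.20), and Vsig4 and Timd4 averaged higher (0.038 and 0.12). Itgax, Gpnmb and Ccr2 had -1.02, -1.18 and -0.78. The HKO mean of Itgax, 3.42, lies under the olfactory percentile, so the size of that change is not a fold of transcript. The HKO mean of Gpnmb, 3.89, lies just above that percentile. Of the stellate cell markers, Ecm1 was higher in every HKO array (0.20), and Lrat, Des, Reln and Hand2 lay between -0.051 and 0.049. Col1a1, Col1a2, Acta2 and Pdgfrb had -1.32, -0.98, -0.74 and -0.73. Platelet markers were dim, 6 of 9 at or under the olfactory percentile (Pf4 and Ppbp among them), and 8 of 9 averaged lower (median -0.18, summed level 7.31 to 7.48 in HKO and 7.51 to 7.71 in Con livers). The 10 hepatocyte markers had a median log2 change of 0.081, 7 of them higher. At an unadjusted p of 0.05, 4 macrophage markers, 6 stellate cell markers and 1 platelet marker were lower. At that p 2 hepatocyte markers were higher, and of the sinusoidal markers 1 was higher and 1 lower. Over all genes 5.31% were higher and 6.56% lower. The part of cell composition in the members' differences was not tested.

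**Figure D5:**
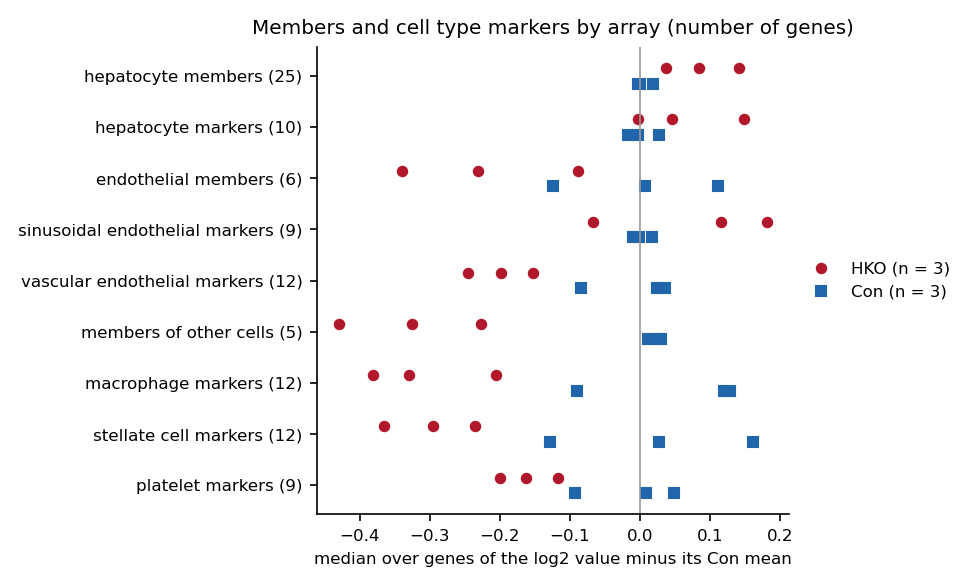
Each point is 1 array: the median over the genes of a list of the log2 value minus its Con mean, for the members by cell class and for cell type markers, with the number of genes in brackets (HKO red circles, Con blue squares). Endothelial members, members of other cells, and vascular endothelial, macrophage, stellate cell and platelet markers lie below 0 in all 3 HKO arrays. The hepatocyte members lie between 0.037 and 0.14 in them.

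Genes that process, sense or clear clotting proteins were read from 4 pathway lists with 33 measured genes. Besides Anxa2 and S100a10, none passed the adjusted threshold; in all 9 were lower and 1 was higher at an unadjusted p of 0.05, beside 6.56% and 5.31% of all genes, and the median log2 change was -0.051. F2r, the thrombin receptor PAR1, read 7.44, 7.49 and 7.60 in HKO livers and 7.89, 8.01 and 7.98 in Con livers. All HKO arrays were below all Con arrays, by 0.45 ± 0.101 in the mean (SE, adjusted p = 0.157). Mcfd2, which with Lman1 carries factors V and VIII out of the endoplasmic reticulum, read 6.11, 5.88 and 5.83 in HKO livers and 6.41, 6.32 and 6.41 in Con livers. Its groups did not overlap either, with a log2 change of -0.44 ± 0.111 (SE, adjusted p = 0.205). Adamts13, the protease that cuts von Willebrand factor, was lower without overlap too, with a log2 change of -0.41 ± 0.122 (SE, adjusted p = 0.273). Nqo1 (a quinone reductase that can reduce vitamin K), Ace (which degrades bradykinin) and Tgm2 (tissue transglutaminase) had log2 changes of -0.64, -0.48 and -0.36, each lower in every HKO array. Serpina5 (protein C inhibitor) had -0.30 at a level under the olfactory percentile. Asgr2, a subunit of the asialoglycoprotein receptor that clears desialylated plasma proteins, was the gene that stood higher, at 9.33, 9.35 and 9.43 in HKO livers and 9.00, 9.17 and 9.13 in Con livers (log2 change 0.27, adjusted p = 0.356).

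Of 11 measured hepatocyte transcription factors that are known to act on clotting genes or the liver program, none passed the adjusted threshold and 4 were higher at an unadjusted p of 0.05, beside 5.31% of all genes. Nr1i3 (the nuclear receptor CAR) read 9.61, 9.36 and 9.60 in HKO livers and 9.10, 9.13 and 9.12 in Con livers. It was higher in every HKO array, by 0.41 ± 0.107 in the mean (SE, adjusted p = 0.220). Foxa3 was higher without overlap, by 0.55 ± 0.170 (SE, adjusted p = 0.278), while Foxa1 overlapped, with a log2 change of 0.67 ± 0.263 (SE, adjusted p = 0.383). Onecut1 (HNF6) read 5.29, 9.10 and 8.87 in HKO livers and 5.76, 5.66 and 5.39 in Con livers. HKO2 and HKO3 were far above every Con array and HKO1 was below them, so its log2 change of 2.15 had an adjusted p of 0.394. Without HKO1 the values were 3.38 and 0.00223, but HKO1 was singled out after its value was seen, so that p is not a test. HKO1 was also the lowest HKO array in Foxa1, at 7.09 beside 7.92 and 8.19, and in Foxa2, at 6.05 beside 6.87 and 7.15. Hnf4a and Cebpa overlapped, with log2 changes of 0.12 and 0.10.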

How the data were processed

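Liver RNA of 3 HKO and 3 Con mice was measured, 1 array each; 400 ng of total RNA went into each labelling, per the labels' protocols. The authors deposited log2 values for 41345 probe sets, which the submitters' processing notes credit to RMA and R 3.3.0. RMA sets array distributions equal and compresses changes of dim genes. The sources used here do not give detection calls, later filters or the design's genome build.

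A platform annotation gave 1 gene to 23521 probe sets, several to 1814 and none to 16010; 23328 of the first were found in RefSeq (GRCm38.p6), with 0 symbols changed. The probe set with the highest mean stood for each of 22180 genes, with no filter on low values. HKO was compared with Con in R 4.3.3 by two-sided limma 3.58.1 (lmFit, eBayes, group as the term), and p-values were adjusted over all genes after Benjamini and Hochberg. The step was tested on simulated data. Python 3.11.15 with matplotlib 3.10.9 drew the figures.

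Members, lists and the rule for named genes were chosen with earlier results of these data known. The rule gave every member an account, with array values for those past an unadjusted p of 0.05 or without overlap and for the best known of each role, plus pathway and transcription factor genes past an unadjusted p of 0.05; further array values were printed where the text describes a gene. The labels do not pair the mice. Alternatives were a second quantile normalization, centring, a filter, other probe set rules, other variance models, a replicate block and leaving out each array.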

Additional observations from a re-analysis of the deposited data

How the results depend on the processing

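Over all alternatives, 17 of 537 member values changed sign, in 12 members whose log2 change was at most 0.066 in size; the other 24 kept theirs. Fgb turned to -0.020 with a second quantile normalization. Leaving out 1 array gave ranges of -0.037 to 0.061 for F2, -0.047 to 0.0012 for F5, -0.039 to 0.011 for F12, -0.022 to 0.10 for Fga, -0.11 to 0.029 for Fgg, -0.011 to 0.15 for Serpinc1, -0.0090 to 0.080 for Serpind1, -0.068 to 0.15 for Kng2, -0.017 to 0.091 for Hrg, -0.044 to 0.029 for F8 and -0.23 to 0.16 for F3. The count of members past an adjusted p of 0.05 was 1. It was 2 with a variance trend (Plat and F7), 0 with every probe set on its own and 0 to 0 without any 1 array. With only genes of mean 4 or more it was 1, but F7 in place of Plat, which that filter removes along with F13a1 and Plaur. All genes past that threshold numbered 45. They were 146 with that filter, 4 with every probe set on its own, 215 with a variance trend and 4 to 32 without 1 array. The hepatocyte genes higher at an unadjusted p of 0.05 were 3; they were 7 with a variance trend and 1 to 3 without 1 array, fewest without Con2. Those higher without overlap were 10, with 8 after a second quantile normalization and 10 to 12 without 1 array, which cannot lower the count. The genes of endothelial and other cells lower at that p were 6; they were 3 with the filter and 2 to 5 without 1 array. Those lower without overlap were 5, with 3 under the filter and 5 to 9 without 1 array, most without Con3. Fewer arrays make overlap rarer, so leaving out an array cannot lower this count either. The hepatocyte median was 0.020 after a second quantile normalization. Median log2 changes without 1 array ran from 0.053 to 0.10 for hepatocyte genes and from -0.38 to -0.20 for the others. The same replicate numbers in both groups did not pair the arrays (correlations of deviations 0.032, 0.016 and 0.021), though each HKO array correlated best with its own number. With the replicate number as a block, 0 members and 3 genes passed; Plat had an adjusted p of 0.0675, S100a10 of 0.113, C8b of 0.0514 and Snai2 of 0.0540. With a variance trend, F2r (0.0288) and Nr1i3 (0.0424) passed. Apart from Plat's filter and the smaller designs, the cause was not tested. Signal near background limits Plat, Plau, Plaur, F13a1 and the macrophage marker Itgax. Vwf, Procr and the pathway gene Adamts13, with HKO means of 4.15, 4.24 and 4.05, also lie close to the olfactory percentile of 3.85.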

Other observations

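The probe set annotated to both Klkb1 (plasma prekallikrein) and its neighbour Cyp4v3 was left out of the comparison. It read 9.65, 9.58 and 9.39 in HKO livers and 9.07, 9.03 and 9.24 in Con livers, a difference of 0.43 with no overlap between groups. Cyp4v3 also had a probe set of its own, which read 9.99, 9.60 and 9.84 in HKO livers and 10.06, 9.88 and 10.02 in Con livers, overlapping and 0.18 lower in the mean.

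Among other plasma proteins of liver, 1 of 27 complement genes passed the adjusted threshold. C8b, the beta chain of the complement protein C8, read 9.48, 9.29 and 8.93 in HKO livers and 7.83, 7.72 and 7.87 in Con livers, higher by 1.43 ± 0.148 (SE, limma adjusted p = 0.0145). Its adjusted p was 0.0621 without HKO2, 0.0758 without Con1, 0.0946 without Con2 and 0.0910 when all probe sets were tested singly. The median log2 change of the complement genes was 0.025, with 4 higher and 1 lower at an unadjusted p of 0.05. That of 20 acute phase genes was -0.069, with none past the threshold in limma and 2 higher and 2 lower at that p. Over all genes 5.31% were higher and 6.56% lower. Of the 20, 9 averaged higher and 11 lower. Saa2 was lower in every HKO array (log2 change -1.64) and Serpina1a higher in every one (0.40). Orm2 and Lcn2 overlapped, with -1.14 and -0.93. Beside the Hrg block on chromosome 16, the liver protein Fetub read 9.92, 10.03 and 9.91 in HKO livers and 9.39, 9.53 and 9.54 in Con livers, higher without overlap by 0.46 (limma adjusted p = 0.148); it was named after its value was seen.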
